A study of Mus musculus with 40 samples.

Results

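Captan and folpet, fungicides mixed into the diet, were compared in the mouse duodenum at the single dose both were given at, 6000 ppm. The comparison rests on 14 of the 40 libraries of the series, chosen by their labelled compound and dose: 7 from mice fed captan at 6000 ppm and 7 from mice fed folpet at 6000 ppm for 28 days. It is the only one of the series in which the compounds share a dose, so 1 pair was compared. All animals were wildtype male B6C3F1 mice, a hybrid laboratory strain, with no age stated in the labels. The 5 control libraries, labelled only as control, are set beside both compounds. Higher-dose libraries (7 of captan at 12000 ppm and 7 of folpet at 16000 ppm) are given side by side, since those doses differ, and 7 libraries from mice given hexavalent chromium at 180 ppm in drinking water enter only the estimate of the spread. RNA came from fixed, paraffin-embedded duodenum scraped off slides and was read with TempO-Seq, in which paired DNA probes are ligated on a transcript, amplified and counted. The panel holds 3045 probes for 2756 gene symbols. Nothing in the labels ties each library to its own mouse; the p-values therefore reflect variation from library to library, which may be technical in part.

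Captan and folpet each carry a trichloromethylthio group on an imide nitrogen; the imide is part of a partly saturated ring system in captan and of an aromatic one in folpet. Both react quickly with thiols such as glutathione. Thiol-reactive chemicals modify Keap1, which releases the transcription factor NRF2 to induce glutathione transferases, quinone reductases and other detoxifying enzymes. The duodenum, where the small intestine begins, is an early site of contact with chemicals in the diet. Its lining also responds to glucocorticoid hormones, whose receptor induces Tsc22d3, Fkbp5 and Ddit4 in many tissues.

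Total counts per library ran from 1763440 to 6788378 over the 14 libraries, and averaged 4627630 with captan and 4692310 with folpet (exact permutation test over 3432 splits, two-sided, p = 0.941). Markers of absorptive enterocytes present on the panel (Fabp1, Fabp2 and Apoa1, 3 of 13 listed) made up 6.19 to 11.01% of counts with captan and 4.23 to 12.4% with folpet. Markers of pancreatic acinar cells (16 of 30 listed on the panel), the enzyme-secreting cells of the neighbouring pancreas, took 0.00772 to 31.9% of counts with captan, 0.0103 to 37.8% with folpet and 18.5 to 72.7% in control libraries. The mean acinar share was 16.0 ± 14.5% with captan and 17.5 ± 13.3% with folpet (SD, n = 7 each; exact permutation test, two-sided, p = 0.843, adjusted p over 3 library measures = 0.941). Probes above 0 numbered 2205 ± 94.7 with captan and 2247 ± 110 with folpet (exact permutation p = 0.455, adjusted p = 0.941). Depth and acinar share thus differed between the compounds by less than the spread between libraries. None of the defining Brunner gland markers Muc6, Tff2 and Pgc was on the panel; the listed stomach and liver markers present, Tff1 and Ttr, were each at most 0.00358% of counts in the 14 libraries. In bulk tissue, fewer cells of a type and less RNA per cell cannot be told apart.

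With captan, 4 genes were lower than with folpet and none was higher. They were Tsc22d3, a glucocorticoid-induced leucine zipper protein, Ddit4, a stress-induced inhibitor of mTORC1, Btg2, an antiproliferative immediate early and p53 target gene, and Nfkbia, the inhibitor that holds NF-kappaB in the cytoplasm. These 4 of 2541 tested probes are 0.157% of those tested (0 higher, 0.157% lower; edgeR quasi-likelihood test, Benjamini-Hochberg adjusted p under 0.05). DESeq2 and limma-voom, given the same probes, each called 13, with 2 higher and 11 lower in both. DESeq2 gave no adjusted p to some probes, Ddit4 and Socs3 included, so its adjustment covered fewer probes. At an unadjusted p under 0.05, edgeR's test put 53 probes higher and 77 lower, together 5.12% of those tested, and at an adjusted p under 0.1 it put 2 higher (0.0787%) and 8 lower (0.315%). Against control, the same fit called 131 probes with captan (5.16%; 96 higher, 3.78%, and 35 lower, 1.38%) and 158 with folpet (6.22%; 117 higher, 4.60%, and 41 lower, 1.61%). Those 2 comparisons share the 5 control libraries, so their values are given side by side and their likeness is not tested. Control libraries also had the higher acinar shares, and without the libraries over 50% acinar the counts were 63 with captan, 104 with folpet and 10 between the compounds, the 4 genes included. Scaling by library totals alone left 1 call between the compounds, Ddit4, and against control it gave 32 higher and 0 lower with captan and 50 higher and 1 lower with folpet. With DESeq2's size factors in edgeR's fit, the splits against control were 85 higher and 54 lower with captan and 100 higher and 53 lower with folpet.

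**Figure D1:**
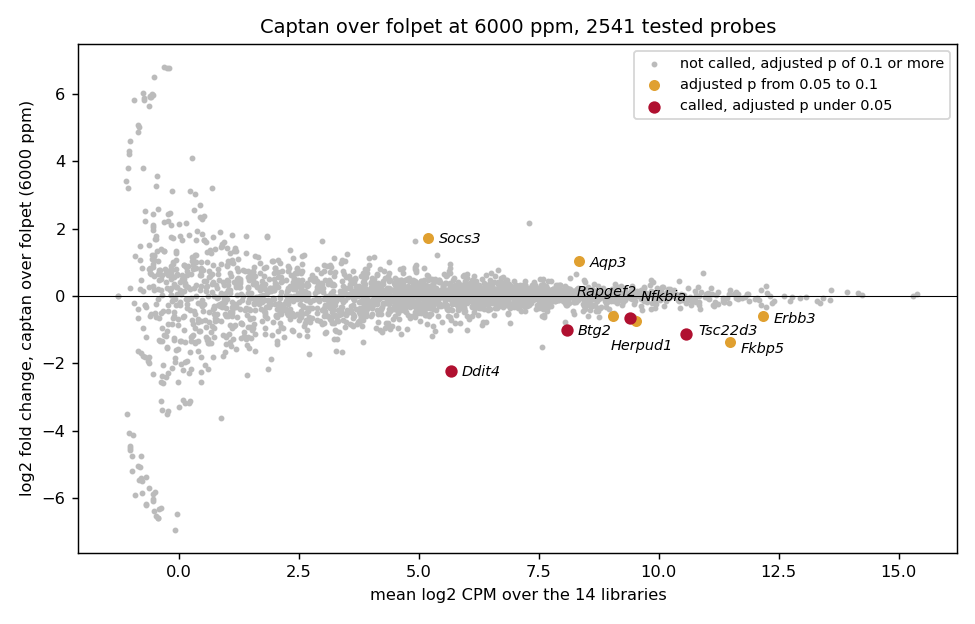
Each point is 1 of 2541 tested probes, placed by its mean log2 CPM over the 14 libraries (horizontal) and its log2 fold change, captan over folpet at 6000 ppm (vertical). The 4 called genes lie below 0, Aqp3 and Socs3 lie above 0 with adjusted p from 0.05 to 0.1, and most probes of 5 log2 CPM or more lie near 0.

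The genes that passed are shown with the 250 bases upstream of a RefSeq transcription start (GRCm38.p6; minus strand of the chromosome, written 5′ to 3′ towards the start), because they are the genes in which the compounds differed. Capitals mark matches on either strand to AGAACA, a glucocorticoid receptor half-site, TGACGTCA, the cAMP response element, the NF-kappaB consensus site, or TGACNNNGC, the core of the antioxidant response element. These motifs, and the glucocorticoid receptor palindrome, an inverted repeat of the half-site that overlaps it, were chosen after the called genes were known.
Tsc22d3, chrX:140600523-140600772: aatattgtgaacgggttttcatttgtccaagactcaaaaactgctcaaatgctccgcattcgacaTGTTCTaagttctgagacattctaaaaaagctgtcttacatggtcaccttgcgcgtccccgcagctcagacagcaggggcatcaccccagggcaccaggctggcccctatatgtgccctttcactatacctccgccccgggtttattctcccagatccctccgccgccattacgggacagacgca
Ddit4, chr10:59951771-59952020: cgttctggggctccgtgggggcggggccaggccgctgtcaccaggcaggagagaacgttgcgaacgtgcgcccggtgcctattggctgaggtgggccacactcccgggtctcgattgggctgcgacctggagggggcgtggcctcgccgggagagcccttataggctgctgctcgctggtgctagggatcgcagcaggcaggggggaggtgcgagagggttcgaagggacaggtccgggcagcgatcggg
Btg2, chr1:134079156-134079405: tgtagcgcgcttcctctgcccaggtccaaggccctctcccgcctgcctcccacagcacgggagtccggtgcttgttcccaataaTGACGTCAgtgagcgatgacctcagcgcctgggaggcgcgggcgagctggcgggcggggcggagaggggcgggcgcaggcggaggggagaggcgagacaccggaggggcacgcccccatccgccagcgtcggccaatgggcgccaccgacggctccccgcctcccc
Nfkbia, chr12:55492648-55492897: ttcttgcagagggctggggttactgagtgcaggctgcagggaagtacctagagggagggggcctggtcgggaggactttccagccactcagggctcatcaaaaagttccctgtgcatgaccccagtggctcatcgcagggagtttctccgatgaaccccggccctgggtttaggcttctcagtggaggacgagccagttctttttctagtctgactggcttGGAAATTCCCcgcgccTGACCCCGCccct
The Tsc22d3 window shown, 1 of 3 starts in the table, held AGAACA, as did 16.1% of 32851 windows of the same length. The other Tsc22d3 windows, not shown, held none of the motifs. The 16.1% is a share per window, and a match in any of 3 windows is more frequent. Which start the counted transcripts came from was not tested. Btg2 held TGACGTCA, found in 1.55% of windows. Nfkbia held the NF-kappaB site, found in 0.356%, and TGACNNNGC, found in 10.2%. The Ddit4 window held none of the 5 motifs. The palindrome, found in 0.00913% of windows, was in none of the 12 windows searched for the 9 genes of smallest p that had an entry. A match is a description of these letters and not a bound site.

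Tsc22d3 separated the compounds most clearly by its p. Its level was 717, 1046 and 1500 CPM (lowest, median and highest of 7 libraries) with captan and 1989, 2326 and 2525 CPM with folpet, against 936, 1093, 648, 1142 and 856 CPM in the 5 control libraries. Every captan library lay below every folpet library, and the captan libraries overlapped the control ones. The log2 fold change, captan over folpet, was -1.11 ± 0.17 (SE; 95% interval -1.45 to -0.78), with an adjusted p of 4.84e-05 by edgeR's quasi-likelihood test. Against control, Tsc22d3 rose with folpet (log2 fold change 1.28, adjusted p = 3.97e-06) and did not pass with captan (0.16, adjusted p = 0.749). A less abundant probe for Tsc22d3 averaged 47.3 CPM with captan and 94.7 CPM with folpet; its log2 fold change of -0.997 ± 0.348 did not pass (edgeR adjusted p = 0.437).

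Ddit4 had the largest fitted fold change among the genes that passed, at a low level. It was at 4.42, 30.5 and 43.6 CPM with captan (lowest, median and highest) and at 44.6, 133 and 186 CPM with folpet, against 37.2, 24.5, 12.2, 41.5 and 157 CPM in control libraries. The compounds did not overlap, though the highest captan library lay just under the lowest folpet library. The control library at 157 CPM, which reached the folpet levels, was the one with an acinar share of 72.7%. Folpet averaged 4.67 times the captan level (log2 fold change -2.22 ± 0.43, 95% interval -3.10 to -1.35, edgeR adjusted p = 0.00811). Ddit4 passed against control with neither captan (log2 fold change -0.98, adjusted p = 0.215) nor folpet (1.24, adjusted p = 0.123).

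Fkbp5, a co-chaperone of steroid receptors that glucocorticoids induce, missed the threshold with an adjusted p of 0.0873. Its level was 842, 1992 and 2770.3 CPM with captan and 3669, 4890.0 and 5832 CPM with folpet, against 1793, 1323, 788, 839 and 1791 CPM in control libraries. No captan library reached the lowest folpet library. The log2 fold change was -1.36 ± 0.34 (95% interval -2.05 to -0.67). Against control, Fkbp5 rose with folpet (1.87, edgeR adjusted p = 0.00166), and with captan its value was 0.51 (adjusted p = 0.514). Of 8 tested members of the glucocorticoid-responsive list, 2 were lower with captan than with folpet (Tsc22d3 and Ddit4) and none was higher, beside 0.157% of all probes, with a median log2 fold change of -0.75 against 0.01 for all tested probes. The members' values ran from -5.36, in a member that did not pass and whose level is not given here, to 0.31. The list was chosen with results of these data known. The receptor gene itself, Nr3c1, had a log2 fold change of 0.31 (95% interval -0.05 to 0.67, adjusted p = 1), and the metallothionein Mt1, also a member, -0.40 (95% interval -1.65 to 0.86).

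Btg2 and Nfkbia were lower with captan, with ranges that overlapped. Btg2 was at 129, 187 and 312 CPM with captan and 234, 435 and 510.4 CPM with folpet, against 189.6, 319, 203, 149 and 286 CPM in control libraries. Of the 7 captan libraries, 5 lay below the lowest folpet library. Its log2 fold change was -0.99 ± 0.20 (95% interval -1.40 to -0.59, edgeR adjusted p = 0.00867), and against control it rose with folpet (0.80, adjusted p = 0.0203) and not with captan (-0.19, adjusted p = 0.753). Nfkbia was at 412, 561 and 654 CPM with captan and 572, 848 and 1192 CPM with folpet, against 493, 722, 723, 672 and 642 CPM in control libraries. Here 6 of 7 folpet libraries lay above the highest captan library, and the control libraries overlapped both groups. The log2 fold change was -0.64 ± 0.14 (95% interval -0.91 to -0.37, edgeR adjusted p = 0.0122), and neither captan (-0.25) nor folpet (0.39) passed against control. Nfkbia was no longer called without captan replicate 1 (-0.60, adjusted p = 0.0691), captan replicate 2 (-0.58, 0.0696) or folpet replicate 3 (-0.55, 0.0819).

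A further 5 genes beside Fkbp5 had an adjusted p from 0.05 to 0.1 and did not pass in edgeR's fit of all libraries. Herpud1, Aqp3, Rapgef2, Erbb3 and Fkbp5 passed with DESeq2 (adjusted p from 0.00544 to 0.0152, over fewer probes), with limma-voom, and in edgeR's fit of the compared groups alone. All of them except Fkbp5 also passed without the libraries over 50% acinar. Socs3 passed with limma-voom (adjusted p = 0.0111) and in both of those edgeR fits. Herpud1, which acts in the disposal of misfolded proteins from the endoplasmic reticulum, was at 358, 538 and 844 CPM with captan and 890.1, 955 and 1073 CPM with folpet (log2 fold change -0.75, 95% interval -1.12 to -0.39, edgeR adjusted p = 0.0783). Rapgef2, an activator of the small GTPase Rap, averaged 433 ± 71.7 CPM with captan and 653 ± 97.1 CPM with folpet (SD, n = 7 each; -0.59, adjusted p = 0.0793 by edgeR). Erbb3, a receptor of the epidermal growth factor receptor family that binds neuregulins, averaged 3789 ± 653 CPM with captan and 5714 ± 629.9 CPM with folpet (-0.59, adjusted p = 0.0873 by edgeR). In these 3 genes every captan library lay below every folpet library. Aqp3, a water and glycerol channel, was at 345, 487 and 585 CPM with captan and 141, 239.7 and 333 CPM with folpet (1.03, 95% interval 0.52 to 1.54, edgeR adjusted p = 0.0793), the reverse arrangement, with no overlap. Socs3, an inhibitor of cytokine signalling, was at 37.1, 68.6 and 114 CPM with captan and 6.88, 18.6 and 40.6 CPM with folpet (1.73, 95% interval 0.83 to 2.64, edgeR adjusted p = 0.0916), and 6 captan libraries lay above the highest folpet one. In all, 7 tested probes had every captan library below every folpet library (0.275%), namely Tsc22d3, Ddit4, Fkbp5, Herpud1, Rapgef2, Erbb3 and Bnip3l, and 1 had every captan library above (0.0394%), Aqp3. Bnip3l, a mitophagy receptor, averaged 186 ± 20.9 CPM with captan and 232 ± 17 CPM with folpet and did not pass (-0.32, 95% interval -0.66 to 0.02, adjusted p = 1).

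**Figure D2:**
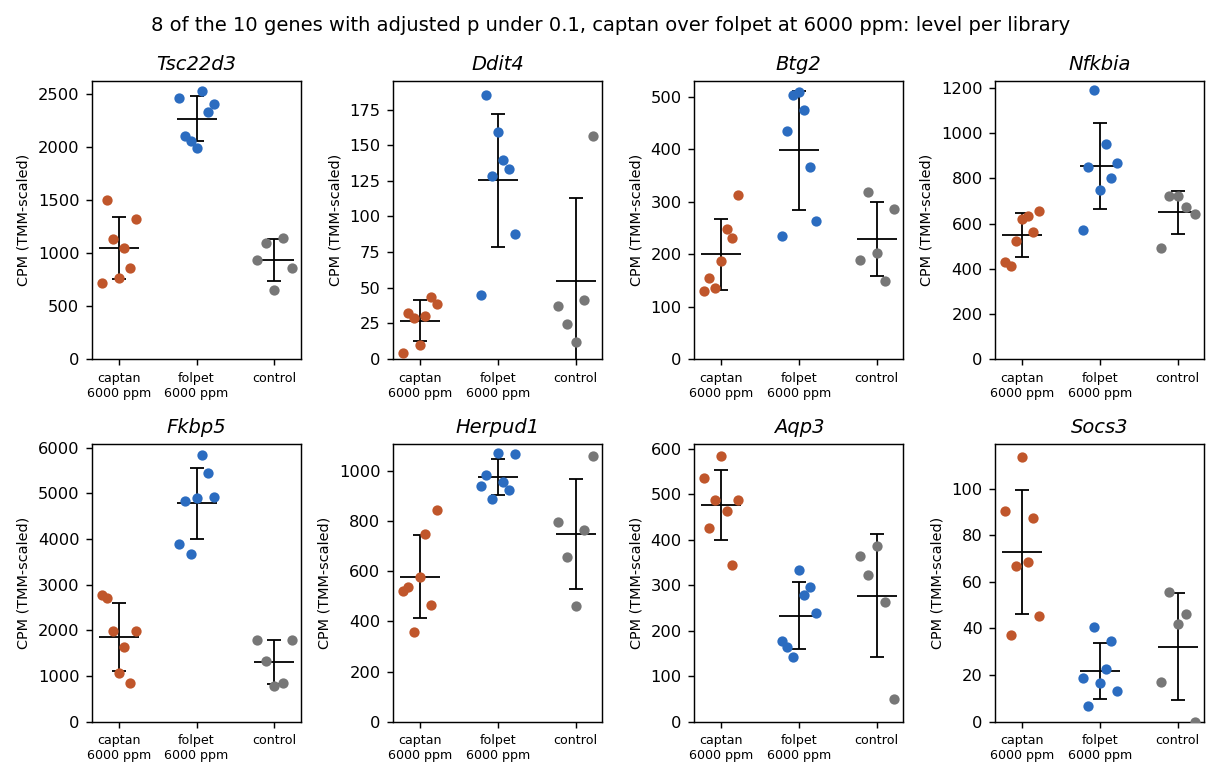
Level in TMM-scaled CPM (vertical) of 8 genes in each library (points) of captan at 6000 ppm, folpet at 6000 ppm and control; bars are the mean and SD, with the lower SD bar ending at 0 where it would pass below. Captan and folpet points do not overlap for Tsc22d3, Ddit4, Fkbp5, Herpud1 and Aqp3.

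Genes of glutathione use and NRF2 control rose against control with each compound, and between the compounds they are described by their intervals. Of 37 tested genes of the NRF2 and glutathione list, 16 rose with captan and 18 with folpet against control, beside 3.78% and 4.60% of all probes, with median log2 fold changes of 1.01 and 0.97. Captan over folpet, 0 of the 37 passed, which at 0.157% of all probes called says little about the list. The median was 0.01, and 22 of 37 had a 95% interval inside -1 and 1, beside 41.3% of all tested probes. That share varied with abundance, from 2.44% of probes under 5 log2 CPM to 91.9% at 8 or more, and the list was not matched for it. A p above the threshold does not show that the compounds acted alike, so the intervals are given.

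Gsta1, a glutathione transferase of the alpha class, was at 5776, 18813 and 30449 CPM with captan and 15196, 19013 and 25074 CPM with folpet, against 1770.0 to 7507 CPM in control libraries. Its log2 fold change, captan over folpet, was 0.03 (95% interval -0.62 to 0.68), and against control 2.33 with captan and 2.31 with folpet (edgeR adjusted p = 0.000159 and 0.000106). Gsta2 averaged 2488 ± 1283 CPM with captan and 2929 ± 902 CPM with folpet (-0.24, 95% interval -1.06 to 0.59), and Gm3776, a related alpha-class gene, 20129 ± 8544 and 18882 ± 4821 CPM (0.09, -0.61 to 0.79). Probes for this family may detect more than 1 member, so values of single members are uncertain. The microsomal epoxide hydrolase Ephx1 averaged 1296 ± 537 CPM with captan and 1081 ± 224 CPM with folpet (0.26, -0.65 to 1.17). Captan replicate 2, the library with the fewest counts and the highest acinar share of its group, held the lowest captan value of all 4 genes. Without it the log2 fold changes were 0.19 (-0.42 to 0.80) for Gsta1, -0.05 (-0.82 to 0.72) for Gsta2, 0.26 (-0.39 to 0.92) for Gm3776 and 0.45 (-0.42 to 1.32) for Ephx1, and none passed. The part of depth and acinar share in that library's values was not tested.

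**Figure D3:**
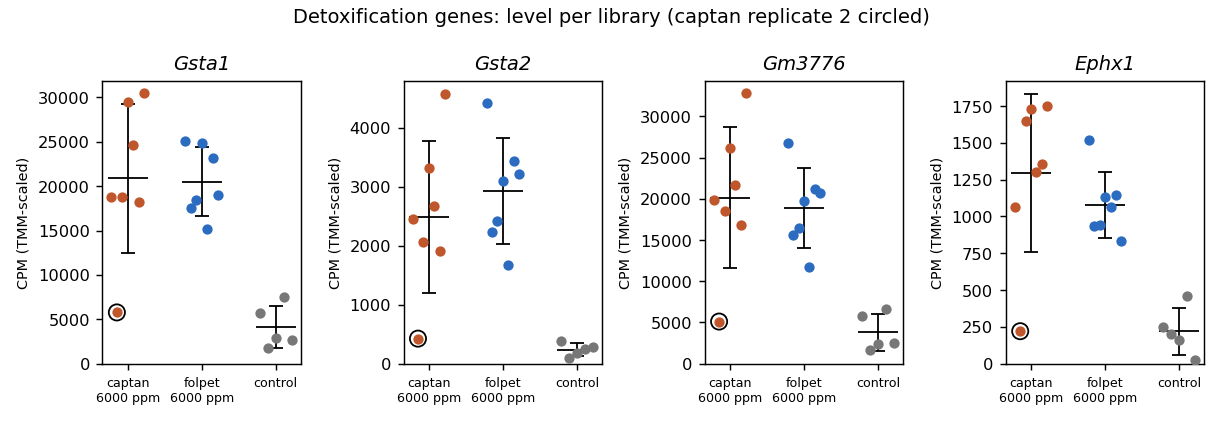
Level in TMM-scaled CPM (vertical) of Gsta1, Gsta2, Gm3776 and Ephx1 in each library (points) of captan at 6000 ppm, folpet at 6000 ppm and control, with mean and SD; captan replicate 2 is circled. The circled library lies among or near the control libraries, and the other 6 captan libraries overlap the folpet ones.

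The quinone reductase Nqo1 averaged 409 ± 193 CPM with captan and 374 ± 203 CPM with folpet, with a log2 fold change of 0.13 (95% interval -0.61 to 0.87). The carbonyl reductase Cbr3 averaged 1061 ± 592 CPM with captan and 889 ± 671 CPM with folpet (0.26, -0.75 to 1.26), and its interval reaches beyond 1 log2 unit. Folpet replicate 1 was the highest folpet library for both genes, at 806 CPM for Nqo1 and 2339 CPM for Cbr3, and without it the log2 fold changes were 0.43 and 0.70. Captan replicate 4 was the highest captan library for both, at 707 and 2149 CPM, and without it they were -0.06 and -0.02. Captan replicate 2 was the lowest captan library for both, at 150 and 336 CPM, and without it they were 0.27 and 0.41. The thioredoxin reductase Txnrd1 differed by 0.08 (-0.43 to 0.58), and Gclm, the modifier subunit of the enzyme that starts glutathione synthesis, by -0.17 (-0.62 to 0.29). Gclc, the catalytic subunit, was low, at 26.4 ± 13.8 CPM with captan and 41.5 ± 34 CPM with folpet (-0.65, -1.64 to 0.33). Narrower intervals came with the hydrogen peroxide-degrading enzyme Cat, at 2081 ± 395 CPM with captan and 2168 ± 309.6 CPM with folpet (-0.06, -0.35 to 0.24). Taldo1, an enzyme of the pentose phosphate pathway, and Me1, an NADPH-forming enzyme, differed by -0.26 (-0.58 to 0.06) and 0.19 (-0.26 to 0.65). Captan replicate 2 was also the lowest captan library for Txnrd1, Gclm, Taldo1 and Me1, and not for Gclc or Cat. Against control, Nqo1, Cbr3, Txnrd1, Gclm, Cat, Taldo1 and Me1 rose with both compounds (edgeR adjusted p under 0.05) and Gclc passed with neither. Hmox1, the haem oxygenase that NRF2 also induces, was at 0 in 4 captan and 5 folpet libraries and gives no usable fold.

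**Figure D4:**
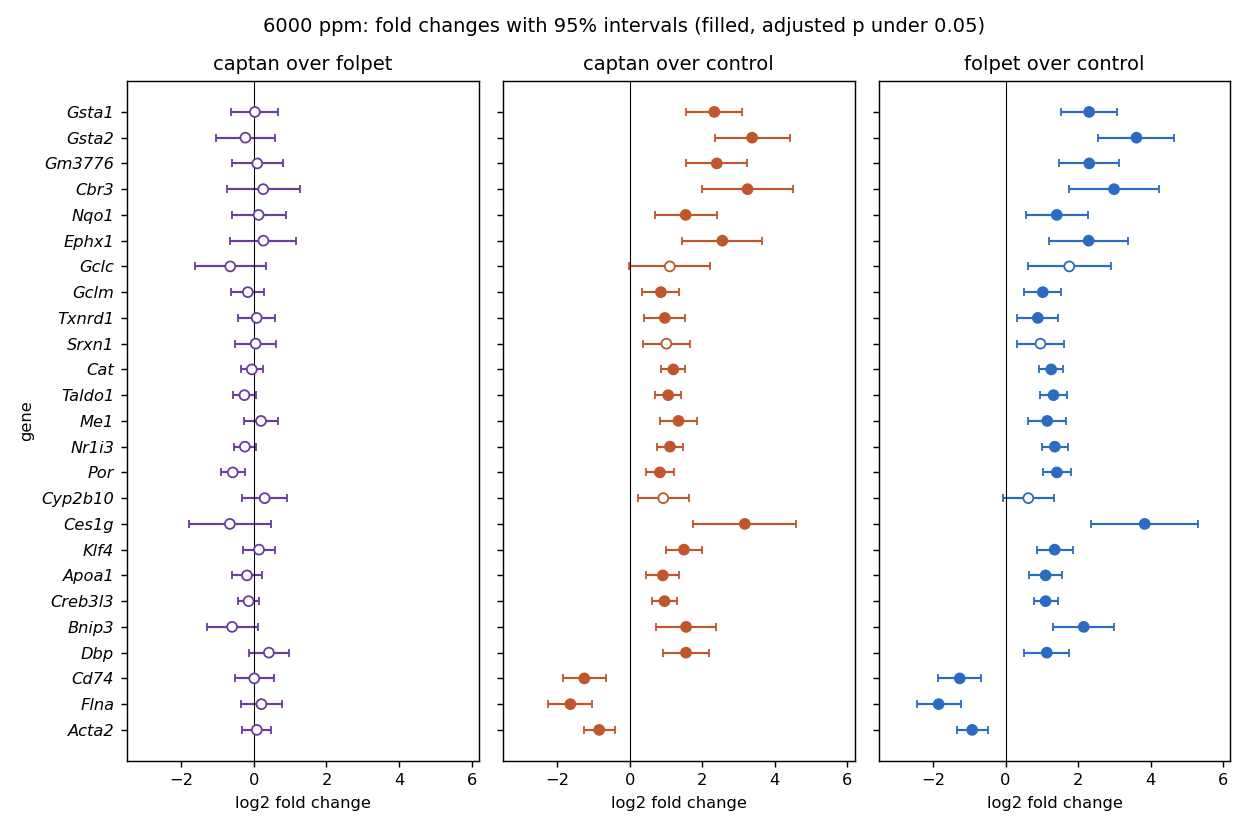
Log2 fold changes with 95% intervals (horizontal) of 25 genes for captan over folpet, captan over control and folpet over control at 6000 ppm; filled points have an adjusted p under 0.05. The genes called between captan and folpet are not among the 25, so open points throughout the first panel follow from this choice. Most points are filled in the other panels, which share the control libraries. The core set and lists from which genes were named were chosen with earlier results of these data known. The contrast between the panels is therefore no test of likeness between the compounds.

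Among genes of xenobiotic metabolism, 0 of 34 tested passed between the compounds, with a median log2 fold change of 0.02, as 0.157% of all probes did, while 11 rose with captan and 10 with folpet against control, beside 3.78% and 4.60% of all probes. Nr1i3, the nuclear receptor CAR that senses foreign chemicals, was at 664 ± 115 CPM with captan and 789 ± 97.3 CPM with folpet (-0.25, 95% interval -0.56 to 0.06). Por, the reductase that feeds electrons to cytochrome P450 enzymes, was at 152, 323 and 382 CPM with captan and 379, 463 and 615 CPM with folpet, and 6 captan libraries lay below every folpet one. It rose against control with both (0.83 with captan, 1.41 with folpet; edgeR adjusted p = 0.00374 and 9.77e-07), and between the compounds its value of -0.58 (-0.92 to -0.25) had an adjusted p of 0.234. Cyp2c29, a cytochrome P450 that CAR induces in mouse liver, was at 115, 392 and 744 CPM with captan and 13.6, 103 and 197 CPM with folpet, against 0 to 140.1 CPM in control libraries. Of the captan libraries, 6 lay above the highest folpet library. Its log2 fold change of 2.16 ± 0.80 (0.54 to 3.78) did not pass (edgeR adjusted p = 0.454), though against control it rose with captan (3.46, adjusted p = 0.0277) and did not pass with folpet (1.30, adjusted p = 0.485). Passing with captan and not with folpet does not show that the compounds differ. Cyp2b10, another CAR target, differed by 0.30 (-0.33 to 0.92), and the carboxylesterase Ces1g by -0.66 (-1.80 to 0.47).

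Among stress and DNA damage genes, Btg2 was the only member that passed of 14 tested immediate early genes and of 32 tested p53 and DNA damage genes, beside 0.157% of all probes; the list medians were 0.00 and -0.14. Cdkn1a, the p53-induced cell cycle inhibitor p21, averaged 357 ± 77 CPM with captan and 488 ± 51.4 CPM with folpet, and 6 folpet libraries lay above every captan one. The value of -0.45 (95% interval -0.78 to -0.12) did not pass (edgeR adjusted p = 0.437), although Cdkn1a rose against control with folpet (0.75, adjusted p = 0.00565). Fos, a subunit of AP-1, differed by -0.50 (-0.92 to -0.09, adjusted p = 0.546), and Maff, a small Maf partner of NRF2, by -0.79 (-1.26 to -0.32, adjusted p = 0.275). Atf3 and the heat shock gene Hspa1b had wide intervals, -2.31 to 0.54 and -0.17 to 2.58. The Hspa1b value of 1.204 rested on captan replicate 4, at 572 CPM against a captan median of 24.4 CPM, without which it was -0.32. None of 20 chaperone, 18 unfolded protein response and 20 hypoxia genes passed, which at 0.157% of all probes is no result about these groups; the list medians were -0.04, 0.08 and -0.04. The clock gene Cry1 averaged 29.6 ± 15.2 CPM with captan and 61.1 ± 14.4 CPM with folpet (-1.05, -1.76 to -0.34, adjusted p = 0.437), and 0 of 6 clock genes passed.

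Proliferation and cell type genes are described by their intervals, since at 0.157% of all probes called the absence of calls in a list says little. Of 77 tested proliferation genes 0 were called, with a median of 0.02; Mki67, a marker of cycling cells, was at 25.1 ± 9.83 CPM with captan and 25.1 ± 9.75 CPM with folpet, with an interval of -1.04 to 1.04 that leaves a doubling possible. All 13 enterocyte genes had a 95% interval inside -1 and 1, as did all 16 genes of mitochondrial respiration. The share was 41.3% of all probes and 91.9% of probes at 8 log2 CPM or more. These lists were abundant, with means of 10.9 and 9.10 log2 CPM in the median captan library. The part of abundance in their intervals was not tested. Apoa1, an apolipoprotein of enterocytes, averaged 10186 ± 3423 CPM with captan and 11634 ± 2041 CPM with folpet (-0.19, -0.60 to 0.21). Klf4, a transcription factor of differentiated epithelium, and Creb3l3, a regulator of lipid genes, differed by 0.14 (-0.29 to 0.57) and -0.15 (-0.44 to 0.15). Cd74, the invariant chain of antigen presentation, averaged 6709.9 ± 2562 CPM with captan and 6667 ± 2987 CPM with folpet, against 15984 ± 6617 CPM in control libraries; it fell against control with both (-1.25 and -1.26; edgeR adjusted p = 0.00536 and 0.00375) and differed between them by 0.01 (-0.53 to 0.55). Smooth muscle Flna and Acta2 also fell against control with both compounds and differed between them by 0.21 (-0.35 to 0.77) and 0.08 (-0.32 to 0.47). Calls of a fall against control varied with the scaling. Scaled by library totals alone, 0 probes were called lower than control with captan and 1 with folpet. DESeq2's size factors in edgeR's fit gave 54 lower with captan and 53 with folpet. Scaling without the acinar probes gave 35 and 34. Whether Cd74, Flna and Acta2 were among the calls of these last 2 scalings was not examined. The 6 leukocyte markers on the panel other than Cd74 together took 0.0307 to 0.0986% of counts with captan, 0.0476 to 0.0887% with folpet and 0.0207 to 0.112% in control libraries. Their medians were 0.0632, 0.0668 and 0.0868%. These are shares of all counts, which a larger acinar share lowers, and not the TMM-scaled CPM given for Cd74. The part of these markers in the values of Cd74 was not tested.

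Of the 27 gene lists, 23 had no member that passed between captan and folpet, and with 0.157% of all probes called this says nothing about those lists. Beside the glucocorticoid-responsive, immediate early and p53 lists, the interferon and cytokine list had 1 of 25, Nfkbia. Lists of lipid and sterol synthesis (19 tested), fatty acid use (22), proteasome (11), lymphocyte (13), macrophage, myeloid and mast cell (11), stroma (25) and pancreatic acinar genes (18) each had 0, with medians from -0.19 to 0.09.

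What these libraries could exclude depended on abundance. The half-width of the 95% interval had a median of 0.92 log2 units over all 2541 probes, and 1050 of them (41.3%) had an interval inside -1 and 1. The share was 2.44% of the 1272 probes under 5 log2 CPM, 74.8% of the 861 from 5 to 8, and 91.9% of the 408 at 8 or more. A difference of 1 log2 unit could therefore be bounded for most abundant genes and for few low ones. Captan libraries varied somewhat more among themselves, with a median SD of 0.63 log2 units over probes against 0.59 for folpet, and the captan SD was the larger for 58.7% of probes.

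The higher doses, 12000 ppm of captan and 16000 ppm of folpet, are given as values only. Tsc22d3 averaged 1046 ± 292 and 1081 ± 284 CPM at 6000 and 12000 ppm of captan, and 2263 ± 214 and 1478 ± 189 CPM at 6000 and 16000 ppm of folpet. Fkbp5 averaged 1859 ± 741 and 913 ± 821 CPM with captan, and 4782 ± 775 and 1334 ± 390.0 CPM with folpet, at the same doses. Its folpet level at 6000 ppm stood above that at 16000 ppm in every library. Erbb3 had 3789 ± 653 and 2649 ± 829 CPM with captan, and 5714 ± 629.9 and 2966 ± 331 CPM with folpet. Btg2 had 199.7 ± 67.4 and 203 ± 64.8 CPM with captan, and 398 ± 113 and 218 ± 38.5 CPM with folpet. For Ddit4 these were 26.9 ± 14.5 and 52.2 ± 31.9 CPM with captan, and 126 ± 46.6 and 62.7 ± 17.4 CPM with folpet. In each of these genes the highest of the means given was that of folpet at 6000 ppm. They were named for their small p between the compounds at 6000 ppm, with folpet the higher, in these same libraries. Their choice thus favours that ranking, which is no test of dose. Cyp2c29 had 408 ± 205 and 1236 ± 1156 CPM with captan, and 91.4 ± 63.4 and 104 ± 47.5 CPM with folpet, and at 12000 ppm of captan its libraries ran from 64.7 to 2812 CPM.

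**Figure D5:**
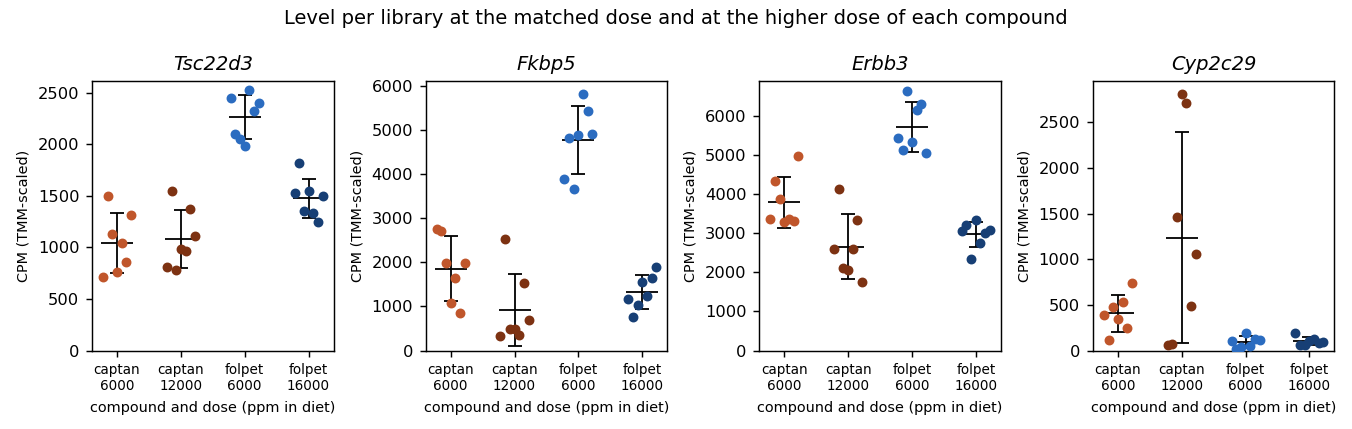
Level in TMM-scaled CPM (vertical) of Tsc22d3, Fkbp5, Erbb3 and Cyp2c29 in each library (points) by compound and dose in ppm of diet, with mean and SD. Folpet at 6000 ppm is highest for the first 3 genes, which were named for their small p between the compounds at that dose. For Cyp2c29 the mean and the spread are largest with captan at 12000 ppm, where some libraries lie among the folpet ones. The higher doses differ between the compounds.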

How the data were processed

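TempO-Seq whole-number counts per probe were deposited by the authors with no normalization that the values or header show; the library type and tissue are given per the labels' protocols. The submitters' processing notes name the tools Bowtie (version not listed) and bcl2fastq 2.17.1.14, and the build mm9. Probe positions and sequences are not used here, and promoter sequences are from RefSeq (GRCm38.p6), in which 9 of the 10 genes asked for had an entry. Of 2756 symbols, 289 have 2 probes, which were tested separately; the probe with more counts is the one named. Groups follow the compound and dose in the labels. Replicates are numbered by accession, as names only, and no libraries held identical values.

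The analysis ran edgeR 4.0.16 under R 4.3.3: filterByExpr (minimum count 10, minimum total 15), TMM scaling, and a robust quasi-likelihood fit with 1 mean per group for 6 groups and 40 libraries (34 residual degrees of freedom), two-sided, with Benjamini-Hochberg adjustment over 2541 probes and a threshold of 0.05. Levels are CPM on TMM-scaled library sizes. Log2 CPM uses a prior count of 2. SEs are the fold change over the root of F, and 95% intervals use the t quantile. Alternatives were DESeq2 1.42.0, limma-voom 3.58.1, other scalings, filters and sample sets, an acinar covariate, and each library left out in turn. The procedure was tested on simulated data. Of the values in the 14 libraries, 26.9% were 0. Reads carry no molecular identifiers that the sources used here give, so the exact binomial intervals of acinar shares (31.8 to 32.0% at the highest captan share, 31.9%) cover counting error only.

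Named genes are the called genes, the 12 of smallest p, a core set, and in each of 27 lists the called members and the member of smallest p. The compound pair, core set and lists were chosen with earlier results of these data known.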

Additional observations from a re-analysis of the deposited data

Results flagged for a closer look

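In the 14 libraries, 134 groups of 7 values (named genes in log2 CPM, and library measures) were searched for 1 library standing far from the rest, and 13 held one. Chance gives about 1 in 20 such groups.

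Captan replicate 2 stood low for 4 detoxifying genes, at 12.5 log2 CPM for Gsta1 (nearest other captan library 14.1), 8.74 for Gsta2 (10.9), 12.3 for Gm3776 (14.04) and 7.79 for Ephx1 (10.1). It had 1763440 counts, the fewest of the 14, and an acinar share of 31.9%.

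Other captan libraries stood low for Por (replicate 3, 7.25 log2 CPM), Nr1i3 (replicate 6, 8.79), Atf3 (replicate 5, -1.26, the value of a count of 0) and Abcc1 (replicate 1, also a count of 0 at -1.26), and captan replicate 4 stood high for Cd74 at 13.57. Folpet libraries stood low for the acinar gene Prss1 (replicate 1, -1.26, a count of 0), the enteroendocrine gene Chgb (replicate 5, 7.19) and the efflux transporter Abcc1 (replicate 4, 2.03). Folpet replicate 5 also had 2013 probes above 0, the fewest of its group.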

How the results depend on the processing

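Captan over folpet, 4 probes were called, and the count ran from 1 to 13 over the alternatives. DESeq2 and limma-voom each called 13 (2 higher, 11 lower), the fit of the compared groups alone 10 (2 higher, 8 lower), the fit without libraries over 50% acinar 10 (2 higher, 8 lower), a threshold of 0.1 gave 10, and scaling by library totals left 1, Ddit4, while Tsc22d3 (-1.09, adjusted p = 0.186), Btg2 (-0.95, 0.630) and Nfkbia (-0.60, 1) missed the threshold with the same sign. DESeq2 gave no adjusted p to Ddit4 and some other probes, so its adjustment covered fewer probes. Leaving out each library in turn gave 3 to 6. Captan over control, 131 became 213 with DESeq2, 32 with library totals, 29 with the compared groups alone, 83 with the acinar covariate, 63 without libraries over 50% acinar, 223 at a threshold of 0.1, and 93 to 161 with 1 library left out. Folpet over control, 158 became 51 with library totals, 77 with the compared groups alone, 104 without libraries over 50% acinar, and 122 to 174 with 1 library left out. Library totals split these into 32 higher and 0 lower with captan and 50 and 1 with folpet, and DESeq2 size factors in edgeR into 85 and 54, and 100 and 53. The cause was not tested. Probes with an interval inside -1 and 1 numbered 1004 to 1035 with 1 library left out. Leaving out 1 library gave an acinar difference of -4.43 to 1.86 percentage points, a difference in totals of -329478 to 412686 and in probes above 0 of -81.1 to -19.4. Over named genes and alternatives, 1467 values kept their side of the threshold, 32 passed it anew, 6 lost it and 0 reversed among called values. No paired analysis was possible because the labels carry no replicate numbers. Leaving out 1 library turned the sign of 14 of 64 named genes, none of them called. Of probes under 5 log2 CPM, 2.44% had an interval inside -1 and 1; depth was not varied.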

Other observations

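Further genes did not pass in edgeR's fit of all libraries. Glul, glutamine synthetase, averaged 127 ± 53.2 CPM with captan and 364 ± 216 CPM with folpet, against 402 ± 466 CPM in control libraries (log2 fold change, captan over folpet, -1.53, 95% interval -2.37 to -0.69, edgeR adjusted p = 0.174). It passed with DESeq2 (adjusted p = 0.00776, over fewer probes), with limma-voom (0.0421) and in edgeR's fit without libraries over 50% acinar (0.0153). The control libraries were at 219, 166, 192, 197 and 1234 CPM, the last being the library with an acinar share of 72.7%. With TMM scaling, Glul fell against control with captan (-1.66, edgeR adjusted p = 0.0177) and did not pass with folpet (-0.13, adjusted p = 0.915). Scaled by library totals alone, 0 probes were called lower with captan than in control libraries. Sqle, an enzyme of sterol synthesis, averaged 70.6 ± 30.7 CPM with captan and 39.8 ± 13.9 CPM with folpet (0.82, 0.24 to 1.41, adjusted p = 0.437). Ppara, a nuclear receptor of fatty acid use, averaged 131 ± 28.2 CPM with captan and 177 ± 45.4 CPM with folpet (-0.43, -0.79 to -0.07, adjusted p = 0.560). Spdef, a regulator of secretory cells, averaged 97.2 ± 26.2 CPM with captan and 68.2 ± 14.7 CPM with folpet (0.51, -0.13 to 1.15, adjusted p = 1). Psmb9 and Mmp9 were at 0 in all 7 captan libraries, and in 4 and 5 of the 7 folpet libraries, so no fold is given.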
